A study of Mus musculus with 6 samples.

Results

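The potassium channel genes described here are the 94 protein-coding genes whose symbol starts with Kcn, out of 21900 protein-coding genes in a RefSeq table of mouse assembly GRCm38.p6, which shares its chromosome coordinates with mm10. They were chosen by symbol, so the set also holds genes of accessory proteins. The data are BMAL1 ChIP-seq peak lists from C57BL/6 retina, 3 from Bmal1 CKO mice, in which the clock gene Bmal1 was conditionally knocked out, and 3 from wild type mice, named Control 1 to 3. BMAL1 is a clock transcription factor, and ChIP-seq recovers and sequences the DNA bound by an antibody, so that enriched places appear as peaks. All mice were untreated. The labels give a weaning day, postnatal day 20, but neither the Cre driver, the deleted cells, the age nor the time of day at which retinas were taken, and peak lists cannot check the tissue against its marker genes.

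Potassium channels let potassium ions cross the cell membrane, and in most neurons the outward flow sets the resting potential and ends each depolarisation. In the retina they shape the light response of photoreceptors, and inward rectifiers of Müller glia take up potassium released by active neurons. In the suprachiasmatic nucleus of the brain, potassium conductances such as that of Kcnma1 differ between day and night. BMAL1 binds DNA together with CLOCK at the E-box, CACGTG.

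The peak lists were of very different length within each genotype. They held 1444, 138254 and 519 peaks in Bmal1 CKO 1, 2 and 3, and 179475, 410 and 372 peaks in Control 1, 2 and 3. The background across the genome, solved from the deposited fold and p-values, was 2.78, 5.83 and 0.560 fragments per base in Bmal1 CKO 1 to 3 and 3.46, 0.609 and 0.852 in Control 1 to 3, and it serves as the measure of depth. Each genotype thus has a single long list, Bmal1 CKO 2 and Control 1, and a difference between these lists compares 2 libraries and has no replicate check. With 3 libraries against 3, an exact two-sided permutation test cannot go below 0.10, and the members were chosen with earlier results known, so counts of genes are given without a p-value.

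Potassium channel genes had fewer end peaks than other genes in Bmal1 CKO 2 and, with every listed peak counted, about as many in Control 1. An end peak is a peak whose summit lies within 1 kb of either annotated end of the gene. In Bmal1 CKO 2, 39 of 94 potassium channel genes had an end peak (41.5%), where the share over all protein-coding genes was 58.9%. In Control 1, 63 of 94 had an end peak (67.0%), where the share over all genes was 69.5%. Under the q-value and fold limits given below, and among genes over 20 kb, the Control 1 share was also lower than that of other genes. No potassium channel gene had an end peak in Bmal1 CKO 1, Bmal1 CKO 3, Control 2 or Control 3, where the shares over all genes were 0.342%, 0.105%, 0.0594% and 0.0594%. A count of 0 is therefore near the background of these short lists. The mean share was 13.8% ± 24.0 in Bmal1 CKO libraries and 22.3% ± 38.7 in controls (SD, n = 3 each), a difference of −8.51 percentage points that is smaller than either SD. It became 13.8 without Control 1, so its sign rests on that library. Over all protein-coding genes the mean shares were 19.8% in Bmal1 CKO libraries and 23.2% in controls, a difference of −3.43 in the same direction.

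Both long lists named 35 potassium channel genes (37.2%; 54.7% of all protein-coding genes). The Bmal1 CKO 2 list alone had an end peak at 4 (4.26%), against 4.22% of all genes. The Control 1 list alone had an end peak at 28 (29.8%), against 14.8% of all genes, and 27 had none in either list (28.7%, against 26.3% of all genes). Other genes of membrane excitability showed the same direction. Of 14 sodium channel genes 1 was listed in Bmal1 CKO 2 alone and 4 in Control 1 alone (28.6%), of 26 calcium channel subunit genes 1 and 12 (46.2%), and of 101 neurotransmitter receptor genes 6 and 25 (24.8%). The share in Control 1 alone was thus above that of all genes in each of these families, and the higher share was not particular to potassium channels.

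Potassium channel end peaks also had lower folds within each list than the end peaks of other genes. The median of the highest end fold was 2.78 over 39 potassium channel genes and 3.10 over 12859 other genes in Bmal1 CKO 2, and 3.24 over 63 and 3.93 over 15163 in Control 1. The fold is the authors' own value per peak and sets the signal at its summit against background in that library. Keeping only peaks with a −log10 q-value of at least 5 left 8 potassium channel genes with an end peak in Bmal1 CKO 2 (8.51%, against 33.2% of all genes) and 38 in Control 1 (40.4%, against 52.7%). Keeping only folds of at least 3 left 13 in Bmal1 CKO 2 (13.8%, against 32.8%) and 43 in Control 1 (45.7%, against 55.9%). Near the 1 kb limit in Bmal1 CKO 2, Kcnk9 and Kcnj4 had their nearest summits at 850 and 858 bp, and Kcna6 and Kcnv2 at 1046 and 1108 bp. In Control 1, Kcnq5 had its nearest summit at 873 bp, and Kcna1 and Kcne4 at 1021 and 1050 bp.

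**Figure D1:**
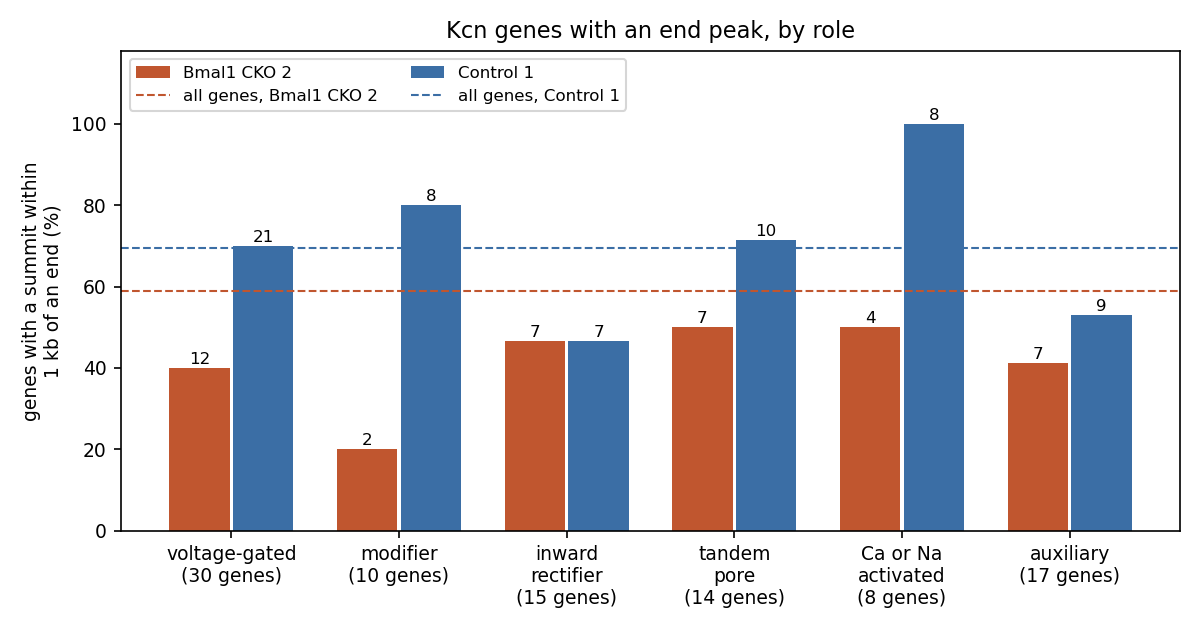
Percentage of potassium channel genes with a summit within 1 kb of an end (vertical axis) in Bmal1 CKO 2 (left bars) and Control 1 (right bars), for 6 role classes. Numbers over the bars count genes and dashed lines mark all protein-coding genes, 58.9% and 69.5%. In every class the Bmal1 CKO 2 share is below its line, and the inward rectifiers have 7 of 15 genes in each list.

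The promoters below carry the points on sequence. They run from 250 bases before to 50 bases after an annotated start and come from RefSeq, build GRCm38.p6, which had an entry for 69 of the 94 genes. In Kcnh4 and Kcnn4 this start lies inside the outermost end of the gene, and in the other 4 it is that end. Kcnh7 had the highest end fold of all members in Bmal1 CKO 2. Kcnh4, Kcnj2 and Kcnk5 held CACGTG and had a peak at the start end in both long lists, Kcnn4 held it and had one in Control 1 alone, and Kcne4 held it and had no end peak. Capitals mark CACGTG, and all sequences read 5′ to 3′ on the strand of the gene. They lie at chr2:63184238-63184537 (minus strand, Kcnh7), chr11:100759729-100760028 (minus, Kcnh4), chr11:111065914-111066213 (plus, Kcnj2), chr14:20181733-20182032 (minus, Kcnk5), chr7:24370013-24370312 (plus, Kcnn4) and chr1:78816661-78816960 (plus, Kcne4).
Kcnh7: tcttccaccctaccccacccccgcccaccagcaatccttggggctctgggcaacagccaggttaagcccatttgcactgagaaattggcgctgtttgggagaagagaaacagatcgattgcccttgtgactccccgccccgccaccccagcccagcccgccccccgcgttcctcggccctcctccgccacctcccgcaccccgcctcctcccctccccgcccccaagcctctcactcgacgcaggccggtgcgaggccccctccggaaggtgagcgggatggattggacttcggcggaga
Kcnh4: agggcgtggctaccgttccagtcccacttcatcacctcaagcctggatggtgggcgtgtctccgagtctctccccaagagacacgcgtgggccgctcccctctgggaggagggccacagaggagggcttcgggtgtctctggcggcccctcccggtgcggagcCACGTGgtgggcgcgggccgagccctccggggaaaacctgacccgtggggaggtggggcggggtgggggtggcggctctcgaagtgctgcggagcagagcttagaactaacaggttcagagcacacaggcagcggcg
Kcnj2: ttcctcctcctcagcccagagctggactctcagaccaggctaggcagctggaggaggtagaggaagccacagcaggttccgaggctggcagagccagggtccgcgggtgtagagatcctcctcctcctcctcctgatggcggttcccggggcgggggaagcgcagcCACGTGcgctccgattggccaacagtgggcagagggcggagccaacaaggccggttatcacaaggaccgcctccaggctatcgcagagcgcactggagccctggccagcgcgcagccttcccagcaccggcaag
Kcnk5: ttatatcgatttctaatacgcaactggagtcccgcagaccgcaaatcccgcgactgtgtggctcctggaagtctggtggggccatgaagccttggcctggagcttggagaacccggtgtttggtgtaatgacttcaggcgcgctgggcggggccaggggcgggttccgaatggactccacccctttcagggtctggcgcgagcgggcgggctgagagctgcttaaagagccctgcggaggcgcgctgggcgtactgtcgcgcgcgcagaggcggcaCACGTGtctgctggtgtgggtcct
Kcnn4: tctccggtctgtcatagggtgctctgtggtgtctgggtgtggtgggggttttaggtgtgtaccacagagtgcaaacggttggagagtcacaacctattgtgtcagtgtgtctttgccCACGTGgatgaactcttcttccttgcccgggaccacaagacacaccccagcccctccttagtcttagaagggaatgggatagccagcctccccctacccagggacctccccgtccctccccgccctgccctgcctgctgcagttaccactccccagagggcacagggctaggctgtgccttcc
Kcne4: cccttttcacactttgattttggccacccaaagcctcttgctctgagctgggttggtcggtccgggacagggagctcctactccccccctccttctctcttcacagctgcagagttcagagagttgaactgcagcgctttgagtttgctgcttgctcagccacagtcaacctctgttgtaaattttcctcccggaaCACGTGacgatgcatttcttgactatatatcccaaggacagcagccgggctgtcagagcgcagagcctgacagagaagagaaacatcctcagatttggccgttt

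CACGTG on either strand was found in 5 of the 69 potassium channel promoters (7.25%) and in 7.91% of 17423 other promoters. The related letters CACGTT were found in 2 (2.90%, against 4.75%), those of Kcnk7 and Kcne3, and TAATCC, a core bound by the photoreceptor factor CRX, in 3 (4.35%, against 6.51%). The shares were thus close to those of other promoters or below them. In Kcnh4 the nearest summit lay 27 bp from CACGTG in Bmal1 CKO 2 and 94 bp in Control 1. In Kcnk5 the distances were 323 and 41 bp, and in Kcnj2 they were 227 and 279 bp. In Kcnn4 the nearest summit of Bmal1 CKO 2 was 29426 bp away and that of Control 1 366 bp away. A match is a description of these windows and shows no binding.

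Voltage-gated pore subunits, which open on depolarisation, had end peaks in 12 of 30 genes in Bmal1 CKO 2 (40.0%) and in 21 in Control 1 (70.0%). All 12 genes of the Bmal1 CKO 2 list were also in the Control 1 list. They included Kcna3 and Kcna4 of the Shaker type, Kcnb2, Kcnc2, Kcnd2, the Kcnh genes 2, 4, 5, 7 and 8, and the M-current gene Kcnq3. Kcnh7, an ERG-type subunit (chromosome 2, 62693410 to 63184287), had a fold of 4.10 in Bmal1 CKO 2 from 27 stacked fragments over a background of 5.83. In Control 1 its fold was 6.28, from 27 fragments over 3.46. The summits lay 134 bp and 45 bp inside its start end, at percentile 86.4 and 93.7 of the end folds of Bmal1 CKO 2 and Control 1.

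Several of these genes are known from rhythmic or retinal neurons. Kcnd2, a subunit of the A-type current (chromosome 6, 21215346 to 21729805), had its highest end fold, 3.67, at 661 bp outside its start end in Bmal1 CKO 2 and 4.95 at 81 bp outside it in Control 1. A second peak of Bmal1 CKO 2 had 3.36 at 103 bp outside that end, and a second peak of Control 1 had 4.61 at 682 bp. The peaks of the lists thus overlapped at both places. Kcnc2, of the fast delayed rectifier, had 3.37 in Bmal1 CKO 2 and 5.60 in Control 1, both near its far end. Kcna3, which lies in a run of Shaker-type genes on chromosome 3, had 4 end peaks in Bmal1 CKO 2, the highest with a fold of 3.43, and a peak 1464 bp wide with a fold of 4.39 in Control 1. Kcna2 and Kcna10 beside it had end peaks in Control 1 alone, with folds of 3.27 and 3.18. The neighbours in this run thus differed between the lists.

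Voltage-gated genes with an end peak in Control 1 alone also included Kcna5, Kcna6, Kcnd3, Kcnh3, Kcnh6 and Kcnq5, the last with the highest fold of this class, 4.01. No voltage-gated gene was listed in Bmal1 CKO 2 alone. Neither list had an end peak at Kcna1, Kcna7, Kcnc1, Kcnc4, Kcnd1, Kcnh1 or Kcnq1. Kcnd1 had no summit inside the gene in Bmal1 CKO 2 and 3 in Control 1, and Kcnc1 had none in Bmal1 CKO 2 and 5 in Control 1.

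Modifier subunits, which form no channel alone and join the Kcnb subunits, had the widest gap between the lists. End peaks were found at 2 of 10 in Bmal1 CKO 2, Kcnf1 and Kcns1, and at 8 of 10 in Control 1. All 4 Kcng genes and Kcns2 and Kcns3 had end peaks in Control 1 alone. Kcng3 had the highest fold of these, 3.69, at 108 bp outside its start end, and its nearest Bmal1 CKO 2 summit lay 16879 bp from an end. Kcng4 had the lowest, 2.07, at percentile 0.217 of the end folds of that list. Kcnv1 and Kcnv2 had no end peak. Kcnv2, whose loss causes a cone dystrophy in humans and whose product is part of a photoreceptor potassium channel (chromosome 19, 27322061 to 27337179), had 2 summits inside the gene in each list, and its nearest summits lay 1108 bp and 1368 bp from an end in Bmal1 CKO 2 and Control 1.

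Inward rectifiers, which pass potassium more easily into the cell than out of it, had end peaks at 7 of 15 genes in each long list (46.7%). The lists shared 5 of them, Kcnj2, Kcnj5, Kcnj8, Kcnj10 and Kcnj11. At Kcnj5 the end peaks of the lists did not overlap, with summits 935 bp apart. Kcnj10 encodes the main inward rectifier of Müller glia (chromosome 1, 172341210 to 172374085). Its fold was 2.75 in Bmal1 CKO 2, at 66 bp inside its start end, from 34 fragments over a background of 11.7. In Control 1 it was 3.63, at 34 bp outside that end, from 30 fragments over 7.54. Kcnj2 had 2.78 in Bmal1 CKO 2 and 5.88 in Control 1, at 309 bp and 361 bp outside its start end. The summits of both genes thus lay at the same end in both lists.

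Kcnj14 and Kcnj4 had an end peak in Bmal1 CKO 2 alone. Kcnj14 had a fold of 2.32 at a summit 5 bp outside its upper end, which also lay within 1 kb of an end of another gene, and Kcnj4 had 2.00 at 858 bp inside its start end. Kcnj6, a G protein-gated channel, and Kcnj12 had one in Control 1 alone, with folds of 4.08 and 2.43. No end peak was listed at Kcnj1, Kcnj3, Kcnj9, Kcnj13, Kcnj15 or Kcnj16. Kcnj13, the channel of the retinal pigment epithelium, had no peak in the gene or within 10 kb in either long list, and it was the only member without one in Control 1. Over all genes 87.8% in Bmal1 CKO 2 and 92.6% in Control 1 had a summit in the gene or within 10 kb, and of the members 84 and 93 did.

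Tandem-pore channels, which carry leak currents, had end peaks at 7 of 14 genes in Bmal1 CKO 2 and 10 in Control 1 (71.4%). Kcnk4, Kcnk5, Kcnk9, Kcnk12, Kcnk15 and Kcnk18 were in both lists, with folds of 2.01 to 2.74 in Bmal1 CKO 2 and 2.46 to 3.82 in Control 1. At Kcnk4, Kcnk5, Kcnk12 and Kcnk15 the highest Bmal1 CKO 2 end peak did not overlap the nearest end peak of Control 1. A lower Bmal1 CKO 2 end peak of Kcnk5, with a fold of 2.05, did overlap it. At Kcnk15 the Bmal1 CKO 2 peak lay at the start end and the Control 1 peaks at the far end. Kcnk10 was listed in Bmal1 CKO 2 alone, where its summit 170 bp inside the start end had 30 fragments over 9.68, a fold of 2.90. Kcnk3, Kcnk6, Kcnk7 and Kcnk16 were listed in Control 1 alone. The summit of Kcnk6 lay 1 bp outside the gene, with a fold of 3.36. Kcnk1, Kcnk2 and Kcnk13 had no end peak in either list.

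Channels of the families opened by calcium or sodium inside the cell, with the Kcnma1 relative Kcnu1 counted among them, had end peaks at 4 of 8 genes in Bmal1 CKO 2 and at all 8 in Control 1. The small-conductance genes Kcnn1, Kcnn2 and Kcnn3 and the sodium-activated Kcnt2 were in both. In Bmal1 CKO 2 the highest fold at Kcnt2 was 3.81, 668 bp inside its start end. In Control 1 its fold of 6.50, at 24 bp inside that end, was the highest of all members. This Control 1 peak overlapped that Bmal1 CKO 2 peak and also a second, with a fold of 3.07 at 316 bp inside the end. Kcnn4, Kcnt1, Kcnu1 and Kcnma1 were listed in Control 1 alone, and Kcnu1, a sperm channel of the Kcnma1 type that opens with alkaline pH, had the highest fold of all 28 such genes, 4.80. Without Kcnu1 the counts were 4 of 7 in Bmal1 CKO 2 and 7 of 7 in Control 1. Kcnma1, the large-conductance channel whose current differs between day and night in the clock nucleus (chromosome 14, 23292288 to 24005110), had 24 fragments over 6.86 in Control 1, a fold of 3.18, at a summit 151 bp into the gene from its start end. Its nearest summit in Bmal1 CKO 2 lay 1482 bp from an end, so it counts as listed in both under a 2 kb window.

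Accessory proteins, which change how pore subunits open or reach the membrane, had end peaks at 7 of 17 genes in Bmal1 CKO 2 (41.2%) and at 9 in Control 1 (52.9%). Kcnab1, Kcnab2 and Kcnab3, the cytoplasmic beta subunits, had end peaks in both lists, as did Kcne1l, Kcnip4 and Kcnmb4. In each list Kcnab2 and Kcnab3 each had an end peak that also lay within 1 kb of an end of another gene. Kcnip4, the longest member at 1136 kb, had a fold of 3.32 in Bmal1 CKO 2 and 6.44 in Control 1, at 532 bp outside and 586 bp inside its start end. A second end peak of Bmal1 CKO 2, with a fold of 2.81 at 288 bp inside that end, overlapped the Control 1 peak. Kcne1, Kcnmb1 and Kcnmb3 were listed in Control 1 alone. Kcne2, Kcne3, Kcne4, Kcnip2, Kcnip3, Kcnmb2 and Kcnrg had no end peak. Kcna7, Kcne2, Kcnj13 and Kcnrg were the members with neither an end peak nor a summit inside the gene in both long lists.

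**Figure D2:**
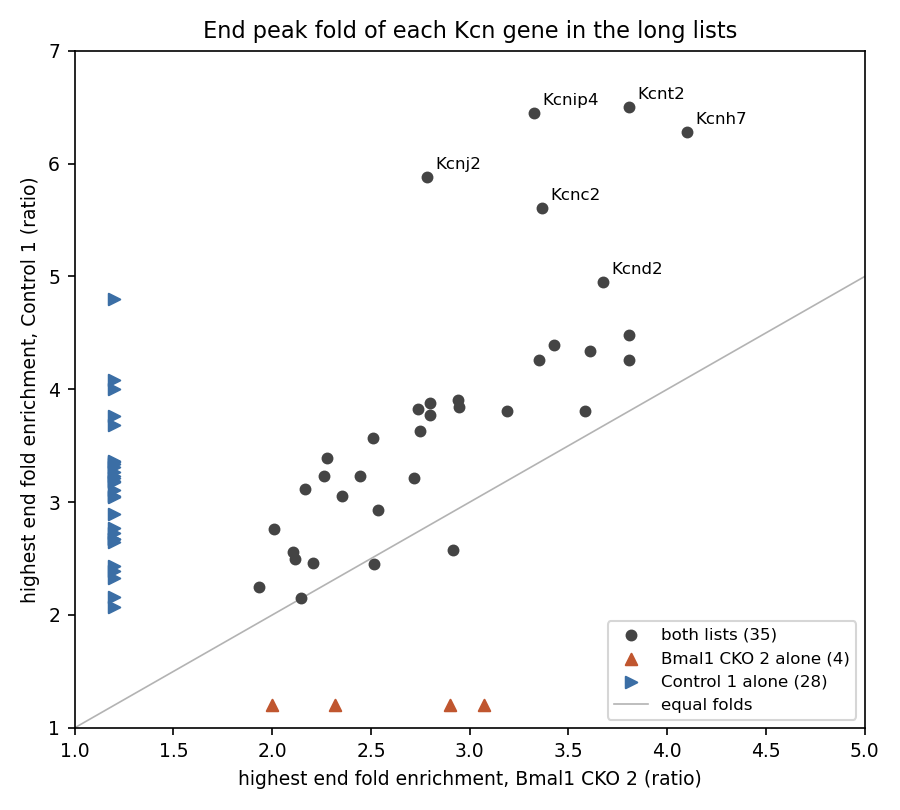
Highest end fold of each potassium channel gene in Bmal1 CKO 2 (horizontal axis, ratio) and Control 1 (vertical axis, ratio). Circles are the 35 genes in both lists, triangles at the margins are the 4 genes in Bmal1 CKO 2 alone and the 28 in Control 1 alone, and the line marks equal folds. Of the circles, 33 lie on the side of lower folds in Bmal1 CKO 2.

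The lower fold in Bmal1 CKO 2 at 33 of the 35 shared genes (94.3%) has the same share as among other genes in both lists (94.7% of 11939), and the background of Bmal1 CKO 2 was higher. At 29 of the 35 genes (82.9%, against 93.1% of the other genes in both lists) the highest end peak of Bmal1 CKO 2 overlapped the nearest end peak of Control 1, and over all 35 the median distance between these summits was 117 bp, against 122 bp. Among the 28 genes of Control 1 alone, the median end fold was 3.14, against 3.02 for 3224 other genes of that kind. Bmal1 CKO 2 had a peak over the same bases at 1 of these 28 (3.57%, against 3.78% of the 3224), a summit within 2 kb of an end at 7 (25.0%, against 22.7%) and a summit inside the gene at 15 (53.6%, against 47.0%). At 12 of them its nearest summit was more than 5 kb from an end (42.9%, against 50.7%). These shares were near those of the other genes. Absence from a list says that no peak passed the authors' limit there.

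By letter, end peaks were found in Bmal1 CKO 2 and Control 1 at 15 and 27 of the 38 genes from Kcna to Kcnh, 7 and 7 of 15 Kcnj genes, 7 and 10 of 14 Kcnk genes, 4 and 8 of 9 Kcnm and Kcnn genes, 2 and 4 of 5 Kcnq genes, and 4 and 7 of the remaining 13. Summits inside the gene per kb, over the summed length of each subfamily, were 0.0425 and 0.0609 from Kcna to Kcnh, 0.0433 and 0.0669 in Kcnj, and 0.0660 and 0.119 in Kcnk. They were 0.0482 and 0.0627 in Kcnm and Kcnn, 0.0255 and 0.0548 in Kcnq, and 0.0298 and 0.0420 in the remaining genes. Over all protein-coding genes, 58.9% and 69.5% had an end peak in Bmal1 CKO 2 and Control 1, and the densities were 0.0641 and 0.0869. The Kcnk genes had the densest peaks in both lists, and the value was lower in Bmal1 CKO 2 in every subfamily, as it was over all genes. The subfamilies were not matched for gene length, with which density also differed.

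End peaks of potassium channel genes were found more often at the start end than at the far end. The Control 1 list also held more summits 1 to 2.5 kb inside the start end than in other genes. The start end is the outermost annotated end of the gene, and an annotated start site can lie further inside. Among the 69 genes with a known strand, 30 had a summit within 1 kb of the start end in Bmal1 CKO 2 (43.5%, against 55.5% of 17423 other genes) and 44 in Control 1 (63.8%, against 64.6%). The far end had one at 6 (8.70%, against 12.4%) and 12 (17.4%, against 19.1%). Between 1 and 2.5 kb downstream of the start end, 10 genes had a summit in Bmal1 CKO 2 (14.5%, against 10.7%) and 23 in Control 1 (33.3%, against 14.8%). Kcnc1, Kcnj10, Kcnk1, Kcnh1 and Kcnmb2 were among those 23 and not among the 10. Counted from annotated start sites instead, Kcnh1, Kcnk1 and Kcnmb2 had a Control 1 summit within 1 kb of a start. The higher share is therefore not shown to lie downstream of start sites. With genes over 5 kb alone the shares were 12.7% against 11.1%, and 30.2% against 14.6%. This window was picked after the profile was seen.

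**Figure D3:**
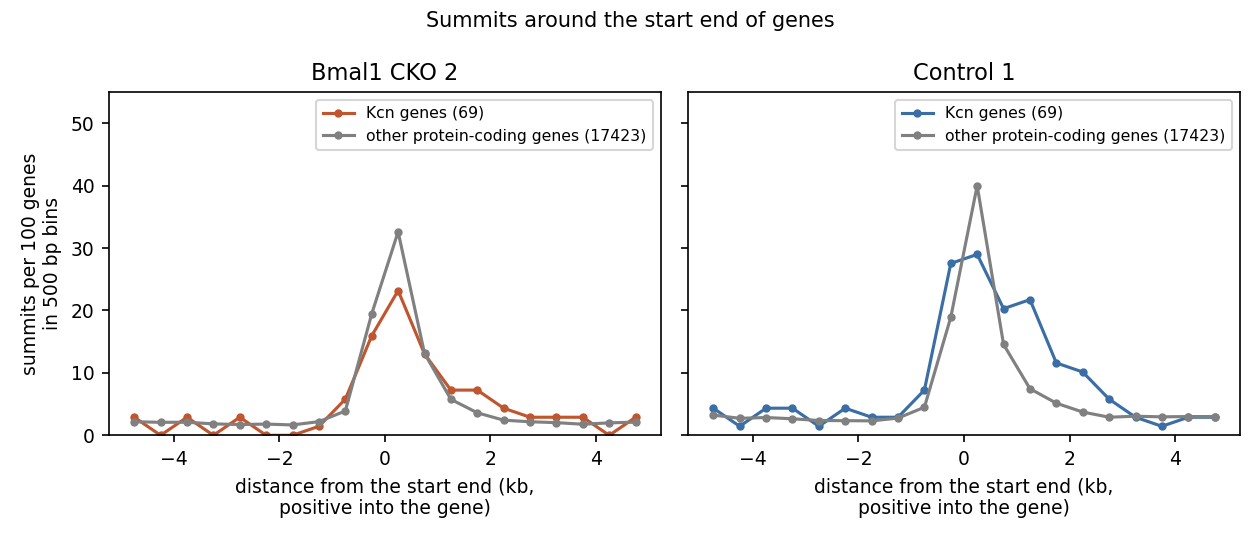
Summits per 100 genes in bins of 500 bp (vertical axis) by distance from the start end (horizontal axis, kb, positive into the gene), in Bmal1 CKO 2 (left) and Control 1 (right). Coloured lines are 69 potassium channel genes and grey lines 17423 other genes. Between 1 and 2.5 kb the potassium channel line is above the other in both panels, with 18.8 summits per 100 genes against 11.8 in Bmal1 CKO 2 and 43.5 against 16.3 in Control 1.

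Genes with a CpG-rich promoter more often had a start-end peak. The peak was scored at the outermost end of the gene, and the promoter window can lie far from it. In Kcnip4 the window starts at 49285610 and the start end is 49525122, and in Kcna2 these are 107101317 and 107090883. The shares below therefore do not show peaks at these promoters. CpG dinucleotides at 0.6 or more of the number expected from base content were found in 21 of the 69 promoters (30.4%), against 48.5% of other promoters. Among these CpG-rich promoters, 61.9% of potassium channel genes and 79.0% of other genes had a start-end peak in Bmal1 CKO 2, and 81.0% and 88.0% had one in Control 1. Below 0.6, the shares were 35.4% against 33.4% in Bmal1 CKO 2 and 56.3% against 42.6% in Control 1. The potassium channel share was thus below that of other genes in the CpG-rich class in both lists. In the CpG-poor class it was close to theirs in Bmal1 CKO 2 and above theirs in Control 1. The part of CpG content in the counts was not tested.

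Inside genes, 431 summits of Bmal1 CKO 2 lay in 68 of the 94 genes (72.3%, where 69.0% of all genes had one), and in Control 1, 650 summits lay in 89 genes (94.7%, against 78.9%). Over the summed length of 10682 kb this gave 0.0403 summits per kb in Bmal1 CKO 2 and 0.0608 in Control 1, against 0.0641 and 0.0869 over all genes. The median over members was 0.0351 in Bmal1 CKO 2 and 0.0956 in Control 1, against 0.0580 and 0.0997 over all genes, so by the median the Control 1 value was close to that of all genes. Bmal1 CKO 1 had summits in 2 members (1.16% of all genes), Bmal1 CKO 3 in 1 (0.671%), Control 2 in 1 (0.452%) and Control 3 in 1 (0.457%). Fewer summits in Bmal1 CKO 2 than in Control 1 were found at 66 members (70.2%, against 47.9% of other genes), equal numbers at 12 (12.8%, against 35.2%) and more at 16 (17.0%, the same share as of other genes). The higher share of fewer thus stood beside a lower share of equal numbers. Members were also longer, with a median of 32.7 kb against 17.1 kb over all genes. Neither these shares nor the shares of genes with a summit were matched for length. Of the 431 intragenic peaks of Bmal1 CKO 2, 47.1% overlapped a Control 1 peak, against 56.1% for other genes, and of the 649 Control 1 peaks 29.4% overlapped Bmal1 CKO 2, against 40.4%. The 650 summits of Control 1 above are counted gene by gene, and the summit inside Kcnmb1, which lies within Kcnip1, counts at both genes.

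Gene length separated the members. The 23 genes over 100 kb had 0.0382 summits per kb in Bmal1 CKO 2 and 0.0480 in Control 1, against 0.0567 and 0.0723 in other genes of that length. The 35 genes of 20 to 100 kb had 0.0422 and 0.104, against 0.0695 and 0.0979, and the 36 genes under 20 kb had 0.0851 and 0.179, against 0.0974 and 0.149. In Bmal1 CKO 2 the members were thus below other genes in all 3 classes, and in Control 1 only in the longest. End peaks in Bmal1 CKO 2 were found at 36.1%, 34.3% and 60.9% of members from the shortest to the longest class, against 50.3%, 68.5% and 71.9% of other genes. In Control 1 the shares were 63.9%, 68.6% and 69.6%, against 61.8%, 77.8% and 81.6%.

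Among genes of at least 10 kb, the densest intragenic peaks in Bmal1 CKO 2 were in Kcnv1 (0.151 per kb), Kcnh6 (0.145), Kcnv2 (0.132), Kcnk18 (0.113) and Kcnmb4 (0.107). In Control 1 they were in Kcng1 (0.233), Kcnk18 (0.226), Kcnh2 (0.218), Kcnj10 (0.213) and Kcnd1 (0.207). These densities rest on 2 to 6 summits a gene in Bmal1 CKO 2 and 3 to 7 in Control 1. Kcnma1 held 30 summits in Bmal1 CKO 2 and 47 in Control 1, and Kcnq1 held 10 in Bmal1 CKO 2 and 31 in Control 1. Kcnh8 went the other way, with 17 in Bmal1 CKO 2 and 5 in Control 1.

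**Figure D4:**
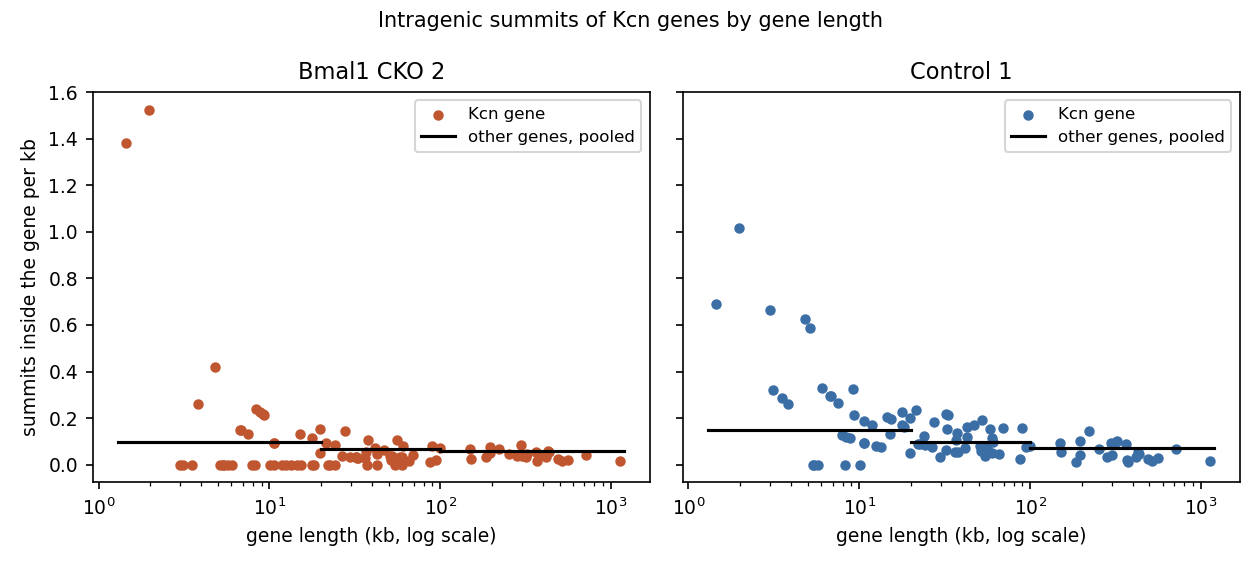
Summits inside each potassium channel gene per kb (vertical axis) by gene length (horizontal axis, kb, log scale) in Bmal1 CKO 2 (left) and Control 1 (right). Each point is a gene, and black lines are the pooled values of other genes under 20 kb, of 20 to 100 kb and over 100 kb. Points at 0 are genes without an intragenic summit, more of them in Bmal1 CKO 2, where 68 of 94 genes had one, than in Control 1, where 89 had one.

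The short lists held a peak at 2 potassium channel genes (2.13%, where 2.36% of all genes had a summit in the gene or within 10 kb in at least 1 short list). Kcnip1, which encodes a calcium sensor that joins the Kcnd subunits (chromosome 11, 33629339 to 33993348), had the same intragenic peak in all 6 libraries. It was the only member listed in all 6 (1.06%, where 0.571% of all genes were). Counting summits within 10 kb as well, Bmal1 CKO 1 listed 2 members (2.05% of all genes), Bmal1 CKO 3 listed 1 (1.08%), Control 2 listed 1 (0.781%) and Control 3 listed 1 (0.758%). Its fold was 9.21, 6.69 and 11.2 in Bmal1 CKO 1, 2 and 3, and 7.57, 9.69 and 8.94 in Control 1, 2 and 3. The genotypes overlapped, and the summits lay between 33754997 and 33755001, about 126 kb from the lower end of the gene. The stacked fragments were 55, 89 and 28 over local backgrounds of 5.08, 12.5 and 1.60 in Bmal1 CKO 1 to 3, and 77, 24 and 21 over 9.30, 1.58 and 1.46 in Control 1 to 3. In each library the local background was above the level across the genome. The peak ranked 203 of 138254 by q-value in Bmal1 CKO 2 and 243 of 179475 in Control 1.

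Kcnip1 also had an end peak in Bmal1 CKO 2 alone. It lay 633 bp outside the far end and held 20 fragments over 5.83, a fold of 3.07. Kcnmb1, a subunit of the large-conductance channel, lies within Kcnip1, so a summit inside Kcnmb1 counts for both genes. Kcnj6 (chromosome 16, 94744980 to 94997696) had a peak near 94812706 in Bmal1 CKO 1, with a fold of 4.0 from 17 fragments over 3.50. Overlapping peaks were listed in Bmal1 CKO 2 with a fold of 4.30 and in Control 1 with 3.90, and none in Bmal1 CKO 3, Control 2 or Control 3. It was the only short-list peak at a member that was not in all 6 lists.

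**Figure D5:**
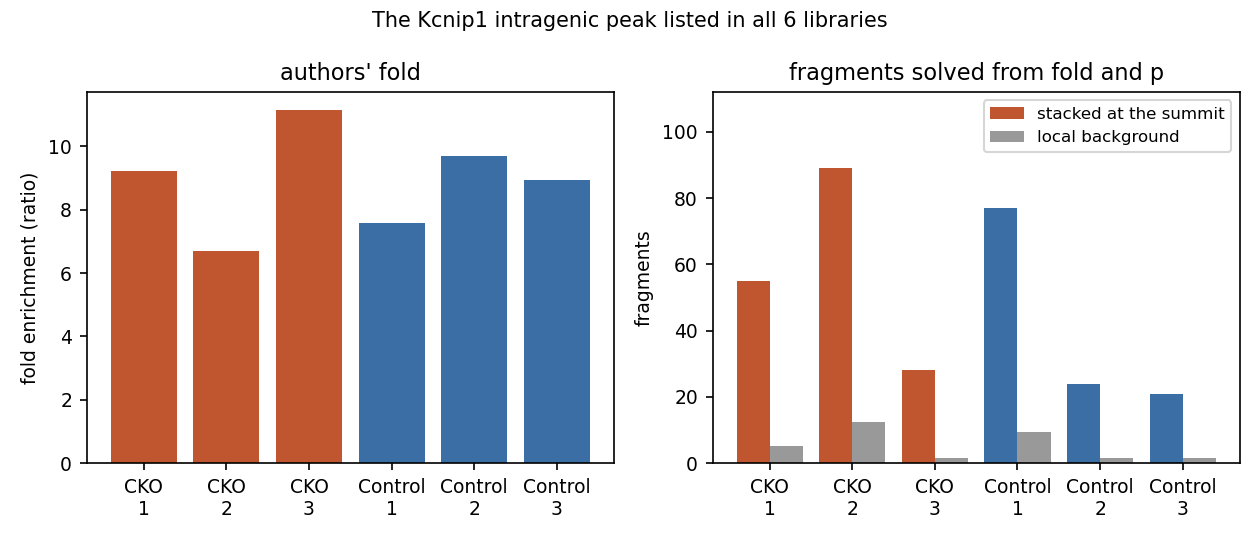
The Kcnip1 intragenic peak in the 6 libraries, Bmal1 CKO 1 to 3 on the left and Control 1 to 3 on the right of each panel. The left panel shows the authors' fold (ratio), and the right panel shows fragments stacked at the summit (coloured) and local background fragments (grey). The fold lies between 6.69 and 11.2 in Bmal1 CKO and between 7.57 and 9.69 in Control libraries.

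End peaks were also counted at 13 genes outside the Kcn symbols whose products form related channels or join potassium channels. Of these, 6 had one in Bmal1 CKO 2 (46.2%, against 58.9% of all genes) and 10 in Control 1 (76.9%, against 69.5%). Dpp6, a partner of the Kcnd subunits, had folds of 2.89 in Bmal1 CKO 2 and 3.89 in Control 1. Abcc9, the sulphonylurea receptor that joins Kcnj8 and lies beside it, had 3.13 in Bmal1 CKO 2 and 4.40 in Control 1. Abcc8, which joins Kcnj11 and lies beside it, had an end peak in Control 1 alone, with 2.43, as had Hcn2, Hcn4 and Dpp10. These 4 genes of Control 1 alone were 30.8% of the 13, against 14.8% of all genes. Lrrc26, Lrrc38 and Lrrc55 had none, and no gene of this list was in Bmal1 CKO 2 alone, where 4.22% of all genes were.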

How the data were processed

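Per the submitters' processing notes, the tools were Trim Galore, Bowtie2 and MACS2 and the build was mm10. Whether an input library served as background is not stated in those notes or the labels. The authors deposited 1 peak list per library, with a fold enrichment (ratio), −log10 p-value, −log10 q-value and score per peak; the score repeats the q-value on another scale and was not used. Lists were tied to libraries by the series record, and the numbers in the list names differ from the replicate numbers.

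Summits were set against gene ends (1 kb) and gene bodies from RefSeq GRCm38.p6, whose gene table has no strand; strand came from the promoter table. Neighbouring genes can share a peak: 3 members in Bmal1 CKO 2 and 5 in Control 1 shared an end peak with another gene. They were Kcnab2, Kcnab3 and Kcnj14 in Bmal1 CKO 2, and Kcnab2, Kcnab3, Kcnh3, Kcnh6 and Kcnk4 in Control 1. Exons were not used, so intragenic peaks are not split into exonic and intronic. Stacked fragments and background were solved from fold and p (pseudocount of 1, Poisson), at 100.0% of peaks tried within 0.002 of the deposited −log10 p-value. They cover counting error only. The solving of fragments, the end calls and the counts inside genes were tested on simulated data, and the other steps were not. Python 3.11.15, pandas 2.3.3 and SciPy 1.17.1 were used.

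A few genes are counted but not reported here by name. Members and lists were chosen with earlier results of these data known. Named are other members in 1 long list alone, in a short list, with the 5 highest end folds or densities per long list, without peaks, or known from retina or clock work. The labels do not say whether replicates are separate mice.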

Additional observations from a re-analysis of the deposited data

How the results depend on the processing

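No paired analysis was possible because no result comes from a test and the replicate numbers only name libraries. No member had an end peak in a short list under any window or limit tried. With a −log10 q-value of at least 5, 8 members in Bmal1 CKO 2 and 38 in Control 1 had end peaks, and intragenic summits per kb were 0.00646 and 0.0220. Under this limit 1 member was in Bmal1 CKO 2 alone (1.06%, against 2.47% of all genes). It was Kcne1l, none of the 4 named. With a fold of at least 3, 13 in Bmal1 CKO 2 had an end peak, with 1 in that list alone, Kcnip1 (1.06%, against 2.08% of all genes). With start sites only, for which 25 members had no entry, 1 was in Bmal1 CKO 2 alone (1.06%, against 2.75% of all genes). It was Kcnk15, none of the 4 named. With Control 1 shortened to the length of Bmal1 CKO 2, 7 were in Bmal1 CKO 2 alone (7.45%, against 5.93%), the 4 named among them. The genes in Control 1 alone numbered 19 to 31 over these settings, against 28, but between 11 and 26 of the 28 kept that place. The share of all genes in Control 1 alone also moved, from 10.3% with start sites only to 25.2% with a fold of at least 3. The shares of members under these settings were 20.2% and 32.98%. In the main setting 29.8% of members and 14.8% of all genes were in Control 1 alone. The member share was thus nearer to that of all genes under the fold limit. As a median over members, density in Control 1 was 0.0956 per kb. The difference in mean share between genotypes, −8.51 percentage points, ranged from −22.3 to 13.8 when a library was left out, reversed to 13.8 without Control 1, and was 0 without both long lists. Windows of 500 bp and 2 kb gave −9.22. Depth differed between libraries and limits what a missing peak can mean. It did not follow list length in the 2 long lists. The background was 5.83 fragments per base in Bmal1 CKO 2 and 3.46 in Control 1, with 138254 and 179475 peaks. The part of depth in the counts was not tested.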
